A study of Mus musculus with 8 samples.

Results

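Sites lost in N440K thymocytes are stretches of the mouse genome where chromatin immunoprecipitation (ChIP) recovered much less DNA with Bcl11b from Bcl11b +/N440K than from Bcl11b +/+ thymocytes. They were chosen from the deposited table of CPM (reads of an interval scaled to a library of fixed size) in intervals of 201 bp. A lost interval had a mean of 10 CPM or more over the 3 +/+ libraries, at least 2 times the mean of the 3 +/N440K libraries, and no +/N440K value as high as the lowest +/+ value. The part of chromosome 12 around Bcl11b (107000000 to 108000000) and the immunoglobulin heavy chain region (113287389 to 116009954) were left out, where 19 intervals met the same values. The rule found 391 lost intervals among 63098 in the table. Since these values chose the intervals, their levels and folds are descriptions with no test.

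The study compared Bcl11b binding in thymocytes freshly isolated from the thymus of mice with 2 normal Bcl11b alleles (+/+) and of mice with 1 normal allele and 1 allele carrying the N440K exchange in the Bcl11b protein (+/N440K). The stated purpose is to find peaks that differ between these genotypes. The antibody was a rabbit antibody against Bcl11b, and the labels do not say whether it binds the normal and the N440K protein alike. The ages, the sexes and whether the 3 libraries of a genotype came from separate animals are not given in the sources used. A p-value here therefore reflects the variation among the libraries alone, part of which may be technical. Thymocytes are a mixture of maturing T cells, and a change in that mixture and a change in binding per cell cannot be told apart in these data. The labelled cell type has no direct check here, since ChIP signal is not expression.

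Bcl11b, a transcription factor with zinc fingers, lets thymocyte precursors commit to the T cell lineage and keeps genes of progenitors, natural killer cells and innate lymphoid cells silent. It works largely by recruiting corepressor and coactivator complexes, among them the NuRD complex, and it often sits on DNA beside other T cell factors such as Runx1. Its relative Bcl11a acts in B cells, erythroid cells and neurons, and Bcl11b itself is also needed in neurons and in epithelia.

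Of the 391 lost intervals, 31 (7.93%) overlapped a RefSeq promoter window, taken as the 250 bases before to 50 bases after an annotated start on GRCm38.p6, and together they touched the windows of 32 genes. Among all 63098 intervals the share was 16.4%, and among the 194 intervals gained under the mirror rule it was 3.09%. The sequences printed here are 5 of these promoters. Bmyc, Pik3ap1 and Gm50341 hold the promoters of the strongest lost intervals that lay over a window, and Klf9 and Nynrin were chosen after their values were seen, as promoters with a ratio close to 3. Each is written 5′ to 3′ on the gene's strand. Capitals mark matches, on either strand, to short words known for thymocyte transcription factors. The ETS word is GGAAG, the RUNX word TGTGGT, the BCL11 word TGACCA, the E protein word CAGCTG, the GATA factor word AGATAA, the TCF/LEF word CTTTGA and the AP-1 word TGANTCA. The AP-1 word is a loose form, in which N is any base. No marked match overlapped another in these 5 windows.
Bmyc, chr2:25706629-25706928, + strand: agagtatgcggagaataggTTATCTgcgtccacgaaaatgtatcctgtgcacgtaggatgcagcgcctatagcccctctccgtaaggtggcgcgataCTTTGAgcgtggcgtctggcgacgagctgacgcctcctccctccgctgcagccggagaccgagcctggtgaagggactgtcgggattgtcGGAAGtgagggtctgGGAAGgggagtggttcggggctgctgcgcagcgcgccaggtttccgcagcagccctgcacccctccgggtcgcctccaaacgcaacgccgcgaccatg
Pik3ap1, chr19:41385053-41385352, - strand: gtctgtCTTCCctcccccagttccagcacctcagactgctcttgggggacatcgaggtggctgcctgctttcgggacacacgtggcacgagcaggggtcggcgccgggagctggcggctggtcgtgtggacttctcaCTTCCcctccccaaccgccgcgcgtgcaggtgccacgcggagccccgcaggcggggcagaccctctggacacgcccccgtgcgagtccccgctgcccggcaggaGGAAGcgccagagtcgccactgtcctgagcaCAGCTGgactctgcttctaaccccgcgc
Gm50341, chr19:24556082-24556381, + strand: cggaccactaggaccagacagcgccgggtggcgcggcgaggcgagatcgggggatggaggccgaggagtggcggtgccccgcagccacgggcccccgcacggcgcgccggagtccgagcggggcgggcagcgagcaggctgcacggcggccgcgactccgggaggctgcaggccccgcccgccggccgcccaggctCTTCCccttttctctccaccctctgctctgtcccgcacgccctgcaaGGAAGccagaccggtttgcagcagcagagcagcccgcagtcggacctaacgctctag
Klf9, chr19:23140976-23141275, + strand: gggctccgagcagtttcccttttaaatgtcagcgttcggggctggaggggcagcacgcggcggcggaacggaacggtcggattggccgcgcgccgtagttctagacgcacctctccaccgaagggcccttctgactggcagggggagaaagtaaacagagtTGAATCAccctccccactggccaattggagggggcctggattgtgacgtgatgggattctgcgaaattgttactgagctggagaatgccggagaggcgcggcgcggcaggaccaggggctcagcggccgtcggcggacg
Nynrin, chr14:55853865-55854164, + strand: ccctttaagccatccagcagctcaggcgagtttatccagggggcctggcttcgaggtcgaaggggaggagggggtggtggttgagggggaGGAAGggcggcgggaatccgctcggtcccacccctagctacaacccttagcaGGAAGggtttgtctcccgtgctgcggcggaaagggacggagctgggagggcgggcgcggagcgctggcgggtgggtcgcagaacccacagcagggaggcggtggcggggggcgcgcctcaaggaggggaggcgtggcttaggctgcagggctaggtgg

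These promoters are rich in G and C. The median GC content was 69.3% over the 32 promoters with a lost interval, against 62.0% over 9496 promoters with any interval of the table and 52.7% over all 27025 promoters. Their median number of CpG dinucleotides in 300 bases was 28.5, against 23 and 7. The ETS word stood in 75% of the 32 promoters, against 77.2% of the 9496 and 71.1% of all, and the E protein word in 21.9%, against 14.8% and 16.2%. The RUNX word stood in 12.5%, against 12.3% and 17.0%, the TCF/LEF word in 9.38%, against 11.3% and 16.2%, and the GATA word in 3.13%, against 5.31% and 11.3%. Letters of the loose AP-1 word stood in 9.38%, against 4.11% and 7.91%, and every such match in the 32 promoters read TGAATCA. The BCL11 word was in 0 of the 32, against 10.4% of the 9496 and 13.7% of all, which says only that these letters are not in these windows. A match describes letters and is not a binding site.

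The promoter intervals had moderate signal in wild type cells. At Bmyc, which encodes a short Myc family protein without the DNA-binding part of Myc, the interval at chr2:25706663-25706863 lay wholly within the printed window. It had 27.9, 16.5 and 18.5 CPM in the 3 +/+ libraries and 6.64, 9.15 and 3.64 CPM in the 3 +/N440K libraries. The first +/+ library was the highest, and the genotypes did not overlap. Pik3ap1 encodes BCAP, an adaptor that links receptors to phosphoinositide 3-kinase, and its interval at chr19:41385007-41385207 had 16.7, 18.1 and 16.7 CPM against 6.09, 6.10 and 9.37 CPM. Klf9, a Krüppel-like transcription factor that responds to glucocorticoids, had 9.91, 14.0 and 14.6 CPM against 4.98, 4.88 and 3.12 CPM at chr19:23141036-23141236, and a lost neighbour 501 bp further on. At Nynrin the interval at chr14:55853980-55854180 had 11.2, 13.2 and 9.87 CPM against 5.54, 1.83 and 4.16 CPM. In each of these promoters every +/N440K library was below every +/+ library, as the rule requires.

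The 6 ChIP libraries held 1609762 to 2400250 reads in the 63098 intervals, with the first +/+ library lowest and the second highest. TMM factors, which adjust for composition and not for depth, lay between 0.9896 and 1.012. Chi-square per degree of freedom between pairs of libraries was 1.24 to 1.42 within a genotype and 1.55 to 1.78 between genotypes. Every pair of libraries differed by more than sampling noise. Of all intervals, 8.95% had every +/+ library above every +/N440K library, and 8.34% had the reverse.

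The lost intervals are a small share of the stronger sites. Of 63098 intervals, 37656 had a +/+ mean of 10 CPM or more, 445 of those had at least 2 times the +/N440K mean, and 410 of those had no overlap. After the chromosome 12 regions were left out, the 391 made up 1.04% of the 37563 intervals that reached 10 CPM. The mirror rule, from the same libraries, gave 194 gained intervals. edgeR's quasi-likelihood test called 226 of the 391 lower at an adjusted p under 0.05, where 0.681% of all intervals were called lower. DESeq2 called 34, where 0.0618% of all were called lower, and limma voom called 92, where 0.231% were. The rule used the same contrast, so these counts describe the intervals and support nothing.

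Across the 391 intervals the loss was similar in each +/N440K library. The median interval had 13.6, 12.4 and 13.7 CPM in the 3 +/+ libraries and 5.54, 5.49 and 5.73 CPM in the 3 +/N440K libraries. In counts, the medians were 22, 30 and 32 reads against 10, 9 and 11 reads, so a single interval rests on few reads. Relative to the +/+ mean, the median log2 difference of the 3 +/N440K libraries was -1.32, -1.22 and -1.27. The second +/+ library was the lowest of its genotype in 187 intervals, the first in 115 and the third in 89. Among the +/N440K libraries, the first was the highest in 103 intervals, the second in 146 and the third in 142.

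**Figure D1:**
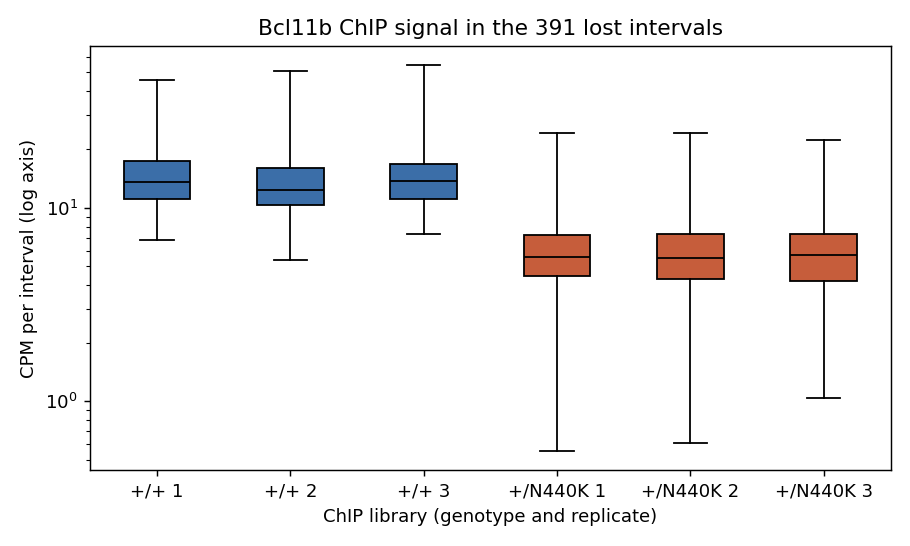
ChIP signal of the 391 lost intervals in each library, in CPM on a log axis. Boxes span the quartiles with the median as a line, and whiskers reach the lowest and highest interval: medians lie at 12.4 to 13.7 CPM in +/+ and 5.49 to 5.73 CPM in +/N440K libraries, as the choice of intervals requires.

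Most losses were close to the threshold. The ratio of the means ran from 2.00 to 7.99 with a median of 2.28, and its quartiles were 2.11 and 2.66. It reached 2.5 in 129 intervals, 3 in 58, 4 in 19 and 5 in 7. No interval had a +/N440K library at 0. The lowest +/+ library exceeded the highest +/N440K library by 1.01 to 4.29 times, with a median of 1.52, and by less than 1.2 times in 50 intervals. The median log2 fold change (+/N440K over +/+) was -1.18, against 0.00 over all 63098 intervals.

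Weak sites made up most of the list. Of intervals with a +/+ mean of 10 to 12 CPM, 2.34% were lost (146 of 6239). The share was 1.58% at 12 to 15 CPM, 0.940% at 15 to 20 CPM, 0.432% at 20 to 30 CPM and 0.192% at 30 to 50 CPM. Above 50 CPM, 0 of 1285 intervals were lost, which allows a share of up to 0.233%. The strongest lost interval had a +/+ mean of 49.2 CPM, while the strongest interval that could have been lost had 242 CPM. The number of reads behind an interval follows the same order, and its part in the shares was not tested.

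**Figure D2:**
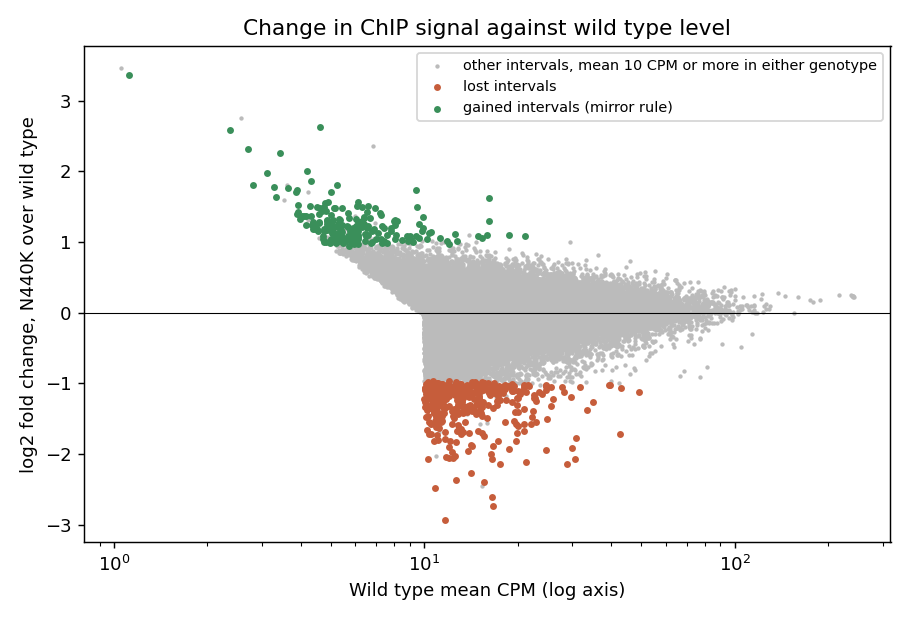
Log2 fold change (+/N440K over +/+) against the +/+ mean CPM on a log axis, for every interval with a mean of 10 CPM or more in either genotype. Lost intervals are orange, gained intervals under the mirror rule are green, and the remaining intervals are grey: the lost intervals lie between 10.02 and 49.2 CPM and none lies above 50 CPM.

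The interval with the most signal lay in Dysf, which encodes dysferlin, a protein of membrane repair. At chr6:84147701-84147901, inside the gene, it had 42.1, 51.0 and 54.5 CPM in +/+ and 22.1, 24.4 and 22.4 CPM in +/N440K libraries. Its means were 49.2 ± 6.39 and 23.0 ± 1.24 CPM (SD, n = 3 each), a ratio of 2.14. Fbxl21, an F-box protein of the circadian clock, was the nearest gene to chr13:56507266-56507466, which lay 14.9 kb away and had 42.1, 37.1 and 50.2 CPM against 24.4, 17.1 and 20.3 CPM. An interval at chr12:70656852-70657052, with no protein-coding gene within 100 kb, had 38.4, 42.0 and 39.1 CPM against 19.4, 24.4 and 15.6 CPM. These intervals kept about as much signal in +/N440K libraries as the 2-fold rule allows.

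Other strong sites lay near genes of receptor signalling, protein turnover and development. Grk3 encodes a kinase that desensitises G protein-coupled receptors, and the interval 19.5 kb from it, chr5:113035195-113035395, had 45.8, 30.9 and 41.2 CPM against 19.4, 24.4 and 14.1 CPM. Its libraries varied more than those of most strong sites, with means of 39.3 ± 7.66 and 19.3 ± 5.18 CPM (SD, n = 3 each). In Marchf10, a membrane-associated ubiquitin ligase gene, chr11:105445024-105445224 had 37.8, 30.5 and 36.9 CPM against 10.5, 15.9 and 17.2 CPM. Barx2 encodes a homeobox transcription factor, and 12.8 kb from it chr9:31926088-31926288 had 30.4, 31.7 and 38.2 CPM against 12.7, 14.6 and 11.5 CPM. The ratios at Marchf10 and Barx2 were 2.41 and 2.58.

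Gna12, Osbpl3, Sorcs2 and Fbn2 combined a high level with a ratio above 3. Gna12 encodes the alpha subunit of a heterotrimeric G protein, and its interval chr5:140784405-140784605 had 41.5, 39.5 and 47.2 CPM against 12.2, 14.0 and 13.0 CPM. Sorcs2, a sorting receptor of the sortilin family, had 29.7, 30.9 and 30.9 CPM against 7.20, 6.71 and 7.81 CPM at chr5:36213441-36213641. The spread within each genotype at Sorcs2 was small, with SDs of 0.664 and 0.549 CPM (n = 3 each). Fbn2 encodes fibrillin 2, a component of matrix microfibrils, and had 32.2, 25.9 and 31.3 CPM against 7.20, 7.93 and 8.33 CPM at chr18:58009327-58009527, 0.7 kb from a gene end. At Osbpl3, which encodes an oxysterol-binding protein, chr6:50366813-50367013 had 25.4, 30.5 and 36.9 CPM against 12.7, 12.2 and 3.12 CPM. The third +/N440K library was far below the other two there, and without it the Osbpl3 ratio was 2.48 in place of 3.31. An interval without a gene within 100 kb, chr10:84111576-84111776, had 25.4, 32.5 and 28.3 CPM against 5.54, 8.54 and 5.73 CPM, a ratio of 4.36, and was picked out after its values were seen.

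**Figure D3:**
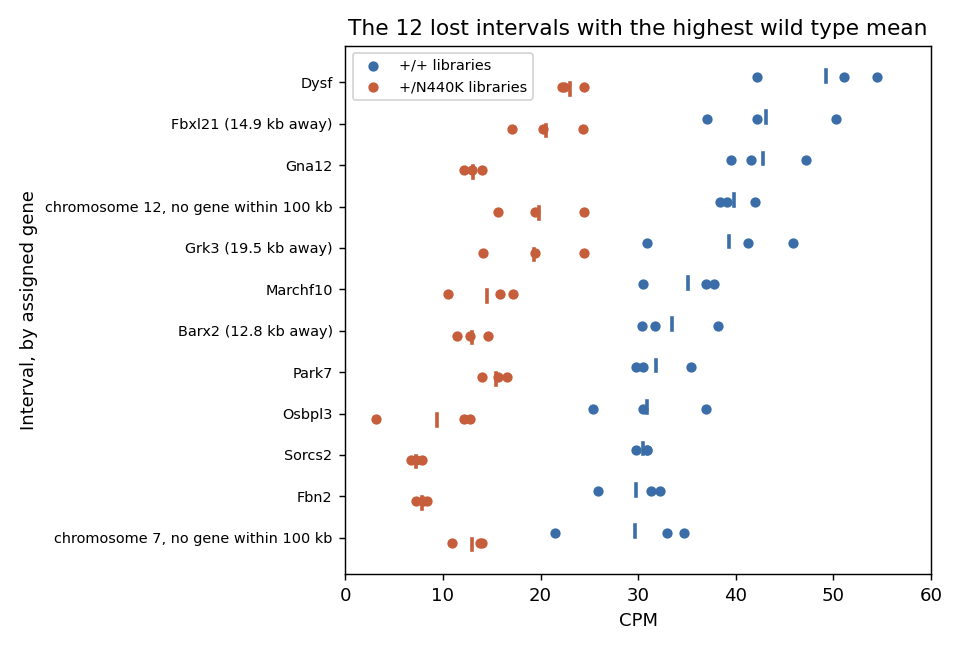
CPM of each library in the 12 lost intervals with the highest +/+ mean, labelled by the gene holding the interval or the nearest within 100 kb. Points are libraries (3 per genotype) and ticks are means: in every row the blue +/+ points lie to the right of the orange +/N440K points, and the ratio of the lowest +/+ to the highest +/N440K point is largest at Sorcs2, at 3.81.

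The widest gaps between the lowest +/+ and the highest +/N440K library were found at both weaker and stronger sites. Sorcs2, Sox6 and Fbn2 were among the 8 widest, with gaps of 3.81, 3.24 and 3.11 times. Adamts2 encodes the enzyme that removes the amino-terminal propeptide of collagens, and inside it chr11:50623893-50624093 had 18.0, 15.6 and 16.3 CPM against 0.554, 3.05 and 3.64 CPM. The lowest +/+ library was 4.29 times the highest +/N440K library, the widest gap of the list. At chr14:106164013-106164213, 28.2 kb from Trim52, the values were 10.5, 9.06 and 15.5 CPM against 2.21, 0.610 and 1.56 CPM, the highest ratio of means in the list at 7.99. Leaving out a single library moved that ratio to between 6.19 and 10.8. Tbc1d2b encodes a protein that acts on Rab GTPases, and inside it chr9:90251048-90251248 had 11.8, 9.88 and 10.7 CPM against 1.66, 2.44 and 1.56 CPM. In Bmp7, a ligand gene of the bone morphogenetic protein family, chr2:172902364-172902564 had 12.4, 11.5 and 14.2 CPM against 1.66, 3.66 and 2.08 CPM. The +/N440K libraries were below 4 CPM in each of these 4 intervals.

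A large ratio did not always come with even libraries. At chr9:103112122-103112322, at the start of Rab6b, a Golgi Rab GTPase gene, the ratio was 6.39, but the second +/+ library had 5.76 CPM against 19.8 and 24.0 CPM in the other +/+ libraries. The +/N440K libraries had 0.554, 3.05 and 4.16 CPM. Near Cand1, which regulates cullin ubiquitin ligases, chr10:119293429-119293629 had 19.8, 11.9 and 10.7 CPM against 5.54, 0.610 and 2.08 CPM. The ratio was 5.16 with all libraries and 10.5 without the first +/N440K library. In 23 of the 391 intervals leaving out a single library moved the ratio by more than 1.5 times. Rab6b and Cand1 were named after their values were seen.

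Intervals at gene ends included promoters and 3′ ends, which the gene table does not tell apart. Park7 encodes DJ-1, a protein of the oxidative stress response, and chr4:150896937-150897137 at its end had 29.7, 35.4 and 30.5 CPM against 16.6, 14.0 and 15.6 CPM. Gm52310, a predicted gene, had 24.2, 28.0 and 24.9 CPM against 9.97, 15.3 and 12.5 CPM at chr17:5488140-5488340. Erich3 had 18.6, 20.2 and 19.7 CPM against 4.98, 11.6 and 4.16 CPM at chr3:154664112-154664312. The second +/N440K library was the high one at Erich3, and without it the ratio of 2.82 became 4.26. Syn3, the gene of the synaptic vesicle protein synapsin III, had 19.8, 21.0 and 16.7 CPM against 9.41, 9.76 and 9.37 CPM at chr10:86498757-86498957. Kcnk12, a potassium channel gene, had 21.7, 16.5 and 16.7 CPM against 7.20, 6.10 and 12.5 CPM at chr17:87746307-87746507, and Tldc2 had a ratio of 2.14 at chr2:157079407-157079607. The ratios of all of these except Erich3 lay between 2.02 and 2.14.

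A smaller share of the lost intervals than of other sites lay near gene ends. Within 1 kb of an end of a protein-coding gene were 17.1% of them (67 of 391; exact 95% interval 13.5 to 21.2%), 41.4% lay further inside genes and 41.4% outside. Among the 37106 other intervals with a +/+ mean of 10 CPM or more, the shares were 42.7%, 33.5% and 23.8%. Gained intervals that reached this mean were not taken out of the 37106. Gained intervals had 8.76%, 51.5% and 39.7%. Restricted to a +/+ mean of 10 to 15 CPM, 18.3% of lost intervals (48 of 263) and 34.9% of the other intervals (4668 of 13359) lay within 1 kb of a gene end. The binomial intervals treat neighbouring intervals as independent, which they are not.

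The median lost interval was 16.3 kb from the nearest gene end, against 19.3 kb for gained and 2.14 kb for other intervals of 10 CPM or more. Lost intervals inside genes lay in long genes. Counted once per interval, the median length of the gene holding it was 105 kb, against 107 kb for gained intervals and 42.5 kb for the others. In 25 lost intervals (6.39%) no protein-coding gene lay within 100 kb, against 3.20% of the others. The surroundings were also thinner in sites: the median lost interval had 5 other intervals of the table within 50 kb, against 9 for the others, and 30 lost intervals (7.67%) had none, against 1.57%.

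**Figure D4:**
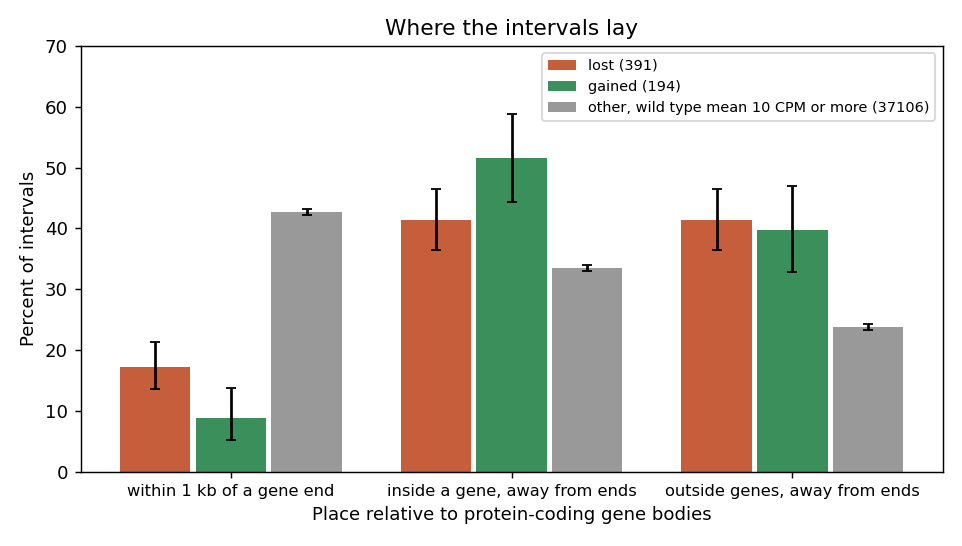
Percent of intervals within 1 kb of an end of a protein-coding gene, further inside a gene, or outside genes, for 391 lost, 194 gained and 37106 other intervals with a +/+ mean of 10 CPM or more. Bars start at 0 and error bars are exact 95% binomial intervals: lost and gained intervals have smaller bars at gene ends than the other intervals.

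By chromosome, the share of intervals of 10 CPM or more that were lost on the autosomes ran from 0.585% on chromosome 18 (6 of 1026) to 1.68% on chromosome 12 (24 of 1426; exact 95% interval 1.08 to 2.49%). Over all chromosomes the share was 1.04%. Chromosome 12 was picked as the highest, and its binomial interval treats neighbouring intervals as independent, which they are not. Chromosome 12 carries Bcl11b itself, whose surroundings were left out. The X chromosome had 9 lost intervals of 565 (1.59%) and 0 gained intervals. The sexes of the mice are not given, so a part of sex in the X values was not tested.

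Some lost intervals came in groups. With at most 20 kb between neighbouring starts, 66 of the 391 (16.9%) fell into 31 groups, so the list covered 356 distinct places. Among gained intervals, 11.9% were grouped. There were 17 pairs with starts at most 1 kb apart, whose members may share DNA fragments and are not counted as independent sites.

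The largest group held 5 lost intervals between chr11:89065969 and 89098949, around the predicted gene Gm525 and beside Dgke, which encodes a diacylglycerol kinase. Its strongest interval, chr11:89082756-89082956, had 21.7, 26.3 and 26.2 CPM against 9.97, 12.8 and 14.1 CPM. The ratios of the 5 were between 2.01 and 2.71. Smoc1, which encodes a secreted calcium-binding matrix protein, was the assigned gene of 4 lost intervals, the last 2 of them 232 bp apart. The strongest, chr12:81063675-81063875, had 23.5, 26.8 and 24.0 CPM against 11.1, 7.32 and 7.81 CPM. Near Pde10a, a cyclic nucleotide phosphodiesterase gene, 3 lost intervals lay 1038 and 2087 bp apart, with 21.0, 10.8 and 14.0 CPM as +/+ means and 8.04, 4.48 and 6.45 CPM as +/N440K means. The genotypes were separated at each of these sites by the rule.

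Pip5k1b, which encodes a kinase that makes phosphatidylinositol 4,5-bisphosphate, had 4 lost intervals, 3 inside the gene and 1 just outside its end, with 261, 83762 and 55654 bp between neighbouring starts. The interval inside the gene at chr19:24416565-24416765 had 24.8, 23.5 and 28.3 CPM against 8.86, 10.98 and 10.9 CPM. Another 83.8 kb further on, chr19:24500327-24500527 had 27.9, 24.3 and 25.8 CPM against 11.1, 11.6 and 10.4 CPM. Just outside the gene's end, chr19:24555981-24556181 had 18.0, 18.5 and 16.3 CPM against 5.54, 8.54 and 8.33 CPM, and it overlapped the printed promoter of the predicted gene Gm50341. The ratios of these intervals were close, between 2.25 and 2.49 for all 4.

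In 1 Mb windows, 287 of 1961 held a lost interval, 18 held 3 or more and 6 held 4 or more. The most crowded window, 115 to 116 Mb of chromosome 7, holds part of Sox6 and the stretch beside it. It had 6 lost intervals among 17. The other 11 intervals of that window were all lower in +/N440K, with a median log2 fold change of -0.77. Sox6 encodes an HMG-box transcription factor, and its nearest lost interval, chr7:115450816-115451016, had 22.9, 19.8 and 21.0 CPM against 6.09, 3.05 and 5.21 CPM. At chr7:115322112-115322312, 148.6 kb from any gene end, the values were 34.7, 32.9 and 21.5 CPM against 13.8, 14.0 and 10.9 CPM. Spry2 encodes an inhibitor of receptor tyrosine kinase signalling, and its window, 105 to 106 Mb of chromosome 14, had 5 lost intervals among 32, with 23 of the other 27 lower.

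Many genes with a lost interval also had lower signal in +/N440K at their other intervals. The other intervals of a gene are those assigned to it, inside it or within 100 kb, and include gained intervals. In 231 genes with a lost interval and at least 3 others, the median log2 fold change of the others was below 0 in 179 (77.5%), and its median over genes was -0.17. Among 7137 genes with no lost interval the share was 46.4% and the median 0.01. A median below -0.5 was found for 39 of the 231 genes and for 2.45% of the genes with no lost interval. For 22 further genes, Fbn2 among them, every interval assigned to the gene was lost.

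Examples of genes with lower signal at most of their other intervals are named here after their values were seen, and are not the highest of a ranking. In Dysf, 6 of 6 other intervals were lower, and their summed signal was 56.4, 56.0 and 59.7 CPM in +/+ against 26.6, 31.7 and 28.1 CPM in +/N440K libraries. In Pip5k1b, 17 of 17 others were lower, with sums of 250, 233 and 231 CPM against 119, 170 and 163 CPM. Adcy5, which encodes an adenylyl cyclase, had 3 of 3 others lower, with sums of 24.8, 18.9 and 19.3 CPM against 8.86, 9.76 and 8.33 CPM. The sums of these 3 genes did not overlap between genotypes, which also held for many other genes with a lost interval. Ntn1 was among those, at a ratio of summed means of only 1.09. The share among genes with no lost interval is not given here. Sox6 and Glis3, both transcription factor genes, each had 7 of 7 others lower, with medians of -0.66 and -0.67. Spry2 had 9 of 9 others lower, with sums of 105, 124 and 123 CPM against 58.1, 97.0 and 63.0 CPM. Pde10a had 29 of 30 others lower, with a median of -0.32. Among further genes, Car2, which encodes a carbonic anhydrase, had 5 of 5 others lower with a median of -1.08, and Ifnlr1, a receptor gene for type III interferons, had 6 of 6 with a median of -0.89.

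At other genes the loss was local. In Gna12, 1 of the 5 other intervals was lower, the median log2 fold change was 0.22, and sums of 47.1, 65.05 and 52.4 CPM against 55.9, 56.7 and 63.0 CPM. In Sorcs2, 15 of 27 others were lower, and the sums of 496, 441 and 479 CPM against 506, 499 and 461 CPM overlapped. Gse1 had 40 of 77 others lower, with a median of 0.00. At Park7, 2 of 5 others were lower, and at Peli2, which encodes a ubiquitin ligase of innate immune signalling, 6 of 12 were. In Ank3, the gene of the membrane scaffold ankyrin G, 1 of 5 others was lower. Whether the genes with a local and those with a gene-wide loss form separate kinds was not tested.

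The same was seen by distance. Intervals that were neither lost nor gained and started less than 402 bp from a lost interval, close enough that fragments may be shared, were at -0.66 (median log2 fold change), with 93.8% of 96 below 0. At 1 to 5 kb the median was -0.44, with 80.9% of 209 below 0. It was -0.17 at 5 to 20 kb, -0.09 at 20 to 50 kb and -0.05 at 50 to 100 kb. Further than 1000 kb away it was 0.02, with 47.7% of 38952 below 0. Around gained intervals the order was mirrored: 0.51 within 402 bp, 0.21 at 1 to 5 kb and 0.12 at 5 to 20 kb.

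**Figure D5:**
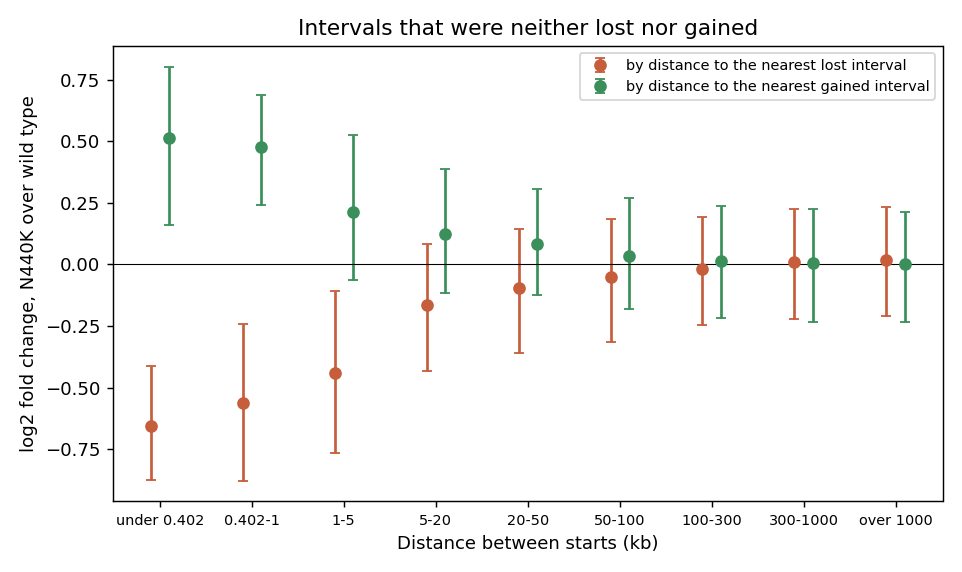
Median log2 fold change (+/N440K over +/+) of intervals that were neither lost nor gained, by the distance in kb from their start to the start of the nearest lost (orange) or gained (green) interval. Bars span the quartiles over intervals: medians move from -0.66 and 0.51 at the closest distances to about 0 beyond 100 kb.

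Gene lists covered T cell genes, signalling, adhesion, chromatin, neurons and other cell types of blood and thymus. They were drawn up with earlier results of these data known. Counts of lost or called intervals in them therefore describe the lists and support nothing. Of the 17 lists with 339 genes, 287 genes had an interval, and 25 of their 1927 intervals of 10 CPM or more were lost (1.30%, close to the 1.04% of all such intervals). The lists of maturation and egress, regulatory T cells, B cells, erythroid cells and thymic epithelium had 0 lost intervals. Those 5 lists had 195, 73, 9, 2 and 13 intervals of 10 CPM or more, so the last 3 could hardly show any.

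In the T cell identity list, 1 of 358 such intervals was lost (0.279%), 13.1 kb from Cd5, a surface protein that dampens T cell receptor signalling. At chr19:10752140-10752340 it had 9.91, 10.3 and 12.02 CPM against 5.54, 3.66 and 6.25 CPM, while 7 of the 12 other intervals of Cd5 were lower with a median of -0.08. edgeR called 1 interval of this list lower and 2 higher among 462, where 0.681% and 0.46% of all intervals were called lower and higher. DESeq2 called 0 in either direction and limma voom 0 lower and 1 higher, where 0.0333% and 0.273% of all intervals were called higher. At an unadjusted p under 0.05 edgeR had 30 lower and 22 higher, where 6.52% and 6.16% of all intervals were. Of the T cell receptor signalling list, 1 of 196 was lost, near Prkcq, the gene of protein kinase C theta, with 11.2, 14.0 and 10.7 CPM against 4.43, 6.71 and 5.73 CPM. edgeR, DESeq2 and limma voom each called 0 of that list's 293 intervals at an adjusted p under 0.05, and at an unadjusted p under 0.05 edgeR had 14 lower and 25 higher. Bcl2l11, the gene of the proapoptotic protein Bim, gave the survival list its only lost interval, with 18.6, 8.23 and 12.4 CPM against 4.98, 4.27 and 7.81 CPM. The highest +/N440K and the lowest +/+ library nearly met there, at a gap of 1.05 times.

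The early progenitor list and the natural killer and innate lymphoid list had a few lost intervals. Among early progenitor genes 2 of 42 were lost: near Gfi1b, a transcription factor gene of erythroid and megakaryocyte cells, with 10.5, 12.4 and 10.3 CPM against 5.54, 3.66 and 4.68 CPM, and in Erg, an ETS factor gene of stem cells. The Erg interval had 16.1, 7.82 and 8.16 CPM against 3.88, 4.88 and 6.77 CPM, and without the first +/+ library its ratio of 2.07 was 1.54. edgeR called 3 of the 88 intervals of this list lower and 0 higher, against 0.681% and 0.46% of all intervals. DESeq2 and limma voom called 0. At an unadjusted p under 0.05 edgeR had 22 of the 88 lower and 5 higher, against 6.52% and 6.16% of all intervals, and the list's median log2 fold change was -0.27. In the list for natural killer and innate lymphoid cells 2 of 63 were lost, both in Zbtb16, which encodes PLZF, a factor that drives innate-like lymphocytes. At chr9:48804688-48804888 the values were 26.0, 18.1 and 26.2 CPM against 9.41, 17.7 and 5.73 CPM. The second +/N440K library was nearly as high as the second +/+ library, a gap of 1.02 times, and without it the ratio of 2.14 was 3.10. The other interval, chr9:48711949-48712149, had 19.2, 14.8 and 12.9 CPM against 8.31, 8.54 and 6.25 CPM, and 9 of the 11 remaining Zbtb16 intervals were lower.

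Signalling genes followed. In the G protein and small GTPase list 5 of 188 were lost: 2 in Gna12, 2 in Adcy5 and 1 in Rap1gds1, which encodes an exchange and chaperone protein for small GTPases. edgeR called 5 of the 292 intervals of that list lower and 0 higher, against 0.681% and 0.46% of all intervals. DESeq2 and limma voom each called 3 lower and 0 higher, where 0.0618% and 0.231% of all intervals were called lower. This list was chosen with earlier results of these data known, so these counts show no enrichment. At an unadjusted p under 0.05 edgeR had 23 lower and 17 higher, against 6.52% and 6.16% of all. The stronger Adcy5 interval, chr16:35229678-35229878, had 18.6, 16.5 and 21.0 CPM against 6.64, 5.49 and 2.60 CPM, and Rap1gds1 had 22.3, 16.9 and 21.0 CPM against 5.54, 7.32 and 6.77 CPM. Cytokine signalling had 2 of 223 lost. Stat3, the transcription factor downstream of interleukin-6, had 12.4, 12.4 and 13.3 CPM against 3.32, 4.88 and 2.60 CPM at chr11:100898025-100898225, and Il6st, the gene of the shared receptor chain gp130, had 11.2, 10.7 and 16.3 CPM against 3.88, 6.10 and 6.25 CPM. edgeR called 4 of 295 intervals of the cytokine list lower and 3 higher, limma voom 1 and 1, and DESeq2 0. Over all intervals the shares were 0.681% and 0.46% with edgeR and 0.231% and 0.273% with limma voom. At an unadjusted p under 0.05 edgeR had 14 lower and 25 higher. In the Notch list, 1 of 113 was lost, 23.8 kb from Neurl1b, a ubiquitin ligase gene that acts on Notch ligands, with 26.6, 19.3 and 27.9 CPM against 6.64, 4.27 and 7.81 CPM.

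Adhesion, chromatin and neuronal lists had the remaining members. In the adhesion and matrix list 4 of 94 were lost, in Adamts17, Adamts2, Fbn2 and Sorcs2. Of its 155 intervals edgeR called 4 lower and 4 higher, limma voom 3 and 4, and DESeq2 3 and 3. Over all intervals the shares were 0.681% and 0.46% with edgeR, 0.231% and 0.273% with limma voom, and 0.0618% and 0.0333% with DESeq2. The list of NuRD and Polycomb cofactors had 1 of 116, in Jarid2, a cofactor of the Polycomb complex PRC2, with 14.9, 12.8 and 15.9 CPM against 6.09, 6.71 and 6.77 CPM. Among neuronal and axon genes 4 of 62 were lost, 2 near Sox6, 1 in Ephb2 and 1 near Cux1, and 4 of the list's intervals were gained. The Cux1 interval, 5.6 kb from this homeobox factor gene, had 20.4, 15.6 and 18.9 CPM against 7.20, 6.71 and 8.85 CPM. The only lost interval of the myeloid list, 1 of 34, lay 4.5 kb from Itgam, the gene of the myeloid integrin CD11b. It had 11.8, 11.1 and 8.58 CPM against 3.32, 5.49 and 4.68 CPM. Binding near these genes was measured, not their expression, and shares of such short lists rest on a handful of intervals.

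When the rule was applied to 5 libraries and the library left out was then looked at, the value of that library had not been used to choose. Without +/+ library 1, 2 or 3 the rule gave 502, 611 and 505 intervals, and the library left out was above every +/N440K library in 85.3%, 83.1% and 86.7% of them. In all intervals of 10 CPM or more the same was true of 24.2 to 26.4%. Without +/N440K library 1, 2 or 3 it gave 523, 571 and 541 intervals, and the library left out was below every +/+ library in 83.2%, 81.6% and 83.7%, against 28.5 to 29.8%. The median fold with the library left out was 1.72 to 1.98, against 2.26 to 2.31 in the libraries that chose, and it reached 2-fold in 37.0 to 49.1% of the intervals. Only the library left out was unused: the opposite genotype it is set against was chosen to be low or high, so these shares and folds are still raised by the choice, and the shares over all intervals are not the values expected without a change. Within its own genotype, the library left out had a median of 0.835, 0.778 and 0.856 times the mean of the kept +/+ libraries, and of 1.31, 1.38 and 1.36 times that of the kept +/N440K libraries. These values are descriptions with no test.

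The threshold cut through a continuous range of values. Just inside a ratio of 2, intervals at Ubqln1, Glis3 and near Hnrnpr had ratios of 2.00, and just outside, intervals near Heatr5a, at Tmem131 and at Macrod2 had ratios that also round to 2.00. At Ubqln1 the values were 16.7, 19.3 and 19.7 CPM against 7.20, 13.4 and 7.29 CPM, and near Heatr5a they were 19.2, 20.6 and 21.0 CPM against 8.86, 8.54 and 13.0 CPM. At the floor of 10 CPM, the interval beside Zc3h12c had a +/+ mean of 10.02 CPM and was kept, and the interval beside Ripor2 had 9.99 CPM and was not. Intervals on the 2 sides of the thresholds had nearly the same values.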

How the data were processed

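Chromatin precipitated with an antibody against Bcl11b was sequenced from thymocytes of 2 genotypes, with 3 libraries each; 2 input libraries of wild type were not analysed here. Per the submitters' processing notes, which give neither roles nor an order, the build was mm10 and the tools were edgeR 3.38.2, bedtools, MACS2, SAMtools 1.9, Bowtie2 2.3.5 and fastp 0.20.0. Whether libraries were pooled before peak calling is not given in the sources used. For 93708 intervals, each 201 bp long, the authors deposited read counts, and for 63098 of them a table of CPM values. Each CPM came back as a whole read count (100% of values, tolerance 0.01) from library sizes scaled by TMM, so a site that few reads support has coarse CPM steps. Interval starts are counted from 1.

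The intervals were chosen on the deposited CPM. The counts were fitted over all 63098 intervals with edgeR 4.0.16 (TMM, quasi-likelihood test, two-sided, Benjamini-Hochberg adjustment, threshold 0.05, genotype as the only term), and with DESeq2 1.42.0 and limma 3.58.1 (voom) as alternatives, in R 4.3.3 and Python 3.11.15. The fit was tested on simulated data. An interval was assigned to the protein-coding gene body holding it, otherwise to the nearest within 100 kb, among 21896 RefSeq genes on GRCm38.p6, the coordinates of mm10; exons and introns were not told apart. "Lower" for an interval that was not lost means a log2 fold change below 0, with no test. The promoter table was matched by position and credited to RefSeq on GRCm38.p6; for motif shares each gene counted once. Sequence under the other intervals was not used here.

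Named intervals were the 12 with the highest wild type mean, the 8 with the largest ratio of lowest wild type to highest N440K library, the 10 with the highest wild type mean within 1 kb of a gene end, the 8 strongest groups, up to 2 per gene list and 3 on either side of the ratio of 2. Others are said to have been named after their values were seen. The intervals, the gene lists (17, with 339 genes) and the motifs were chosen with earlier results of these data known. Floors for a count of 0 use 3 counts, and binomial intervals are exact (95%); both cover counting error only. Alternatives were other thresholds, scalings, filters and tools, a replicate block and leaving out each library.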

Additional observations from a re-analysis of the deposited data

How the results depend on the processing

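The number of lost intervals, 391, was set by the thresholds: it was 1562 at a ratio of 1.5, 58 at a ratio of 3, 1014 with a wild type mean of 5 CPM and 49 with 20 CPM. Leaving out a single library, so that fewer values had to be separated, gave 502 to 611, the highest without the second wild type library. CPM from total counts gave 307, from DESeq2 size factors 389, and allowing overlap 426. Of the 391 intervals, edgeR called 226 lower; the number was 34 with DESeq2, 92 with limma voom and 95 at an adjusted p of 0.01, and it was 105 to 161 when a library was left out, the lowest without the first N440K library. It was 142, 161 and 128 without wild type library 1, 2 and 3, and 105, 145 and 128 without N440K library 1, 2 and 3. Fewer libraries were then fitted. Total counts gave 246, loess offsets 205 and no filter 200. The median log2 fold change of -1.18 lay between -1.24 and -1.18 when a library was left out. With the replicate number as a block, 226 intervals were called lower and the median was -1.18. Libraries with the same number had deviations that correlated at -0.004, 0.028 and 0.058, so the numbers were not taken to pair the libraries. The share within 1 kb of gene ends, 17.1%, was 10.3% at a ratio of 3, 8.16% with a wild type mean of 20 CPM and 22.4% without the second N440K library; within 5 kb it was 29.2%. The first 3 of these alternatives were chosen after seeing the data. All 708 values of the 59 named intervals under alternatives kept their direction, which the choice of separated intervals largely fixed in advance. Median counts of 9 to 32 reads per library limit what a single interval can show.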
